A study of Mus musculus with 30 samples.

Results

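Muc2 encodes the gel-forming mucin of the colon, and its RNA is described here in colon tissue of mice that lack Xbp1, Casp8 or both in the intestinal epithelium. It is 1 gene of the 55487 in the deposited table, taken by its symbol, and its levels were split by the presence of the Xbp1 deletion. The gene and that split were chosen by the CPM of Muc2 itself in these 30 libraries. Differences of Muc2 between Xbp1-deleted and Xbp1-intact mice are therefore given as values with no test, and tests of Muc2 are given between genotypes of the same Xbp1 state, for the difference of differences, and against other genes within a state. Total RNA of the colon of 30 mice, 1 library per mouse, was read as 3′ tags, which count the ends of transcripts. Each of 6 genotypes had 5 mice. The Xbp1 knockout (XBP1IEC-KO) and the Casp8 knockout (Casp8IEC-KO) lacked 1 gene in intestinal epithelial cells (IEC). The double knockout (XBP1IEC-KO;Casp8IEC-KO) lacked both there. The TNFR1 triple knockout (XBP1IEC-KO;Casp8IEC-KO;TNFR1IEC-KO) lacked epithelial TNFR1 as well, and the MLKL triple knockout (XBP1IEC-KO;Casp8IEC-KO;MLKLKO) lacked MLKL, for which the label names no cell type. The last group was WT. Of the 6 groups, 4 thus shared the Xbp1 deletion (20 mice) and 2 did not (10 mice). The sources used here give no Cre line, deleted exons, age or sex.

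Goblet cells store the MUC2 protein in apical granules and release it as the polymer that forms the mucus layer between bacteria and colon epithelium. MUC2 is a very long protein that forms disulfide-linked dimers in the endoplasmic reticulum (ER), is densely decorated with O-linked sugars in the Golgi, and multimerizes before storage, so its production depends on the ER folding machinery. XBP1 is a transcription factor that is switched on by the ER stress sensor IRE1 and enlarges the secretory pathway. IRE1β, encoded by Ern2, is the form of IRE1 in mucus-secreting epithelium and is known in mice to lower Muc2 RNA in goblet cells. Caspase-8 is a protease of cell death, TNFR1 a receptor for TNF, and MLKL the protein that carries out necroptosis.

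Muc2 (ENSMUSG00000025515) lies on the plus strand of chromosome 7 at 141690340-141754693 (GRCm38, GENCODE vM21), and no other annotated gene overlaps it. The annotation holds 8 protein-coding transcript models, none of which spans the gene. The 5′ models end at 141704611 and the 3′ models begin at 141744612. Muc2-207 (19 exons, 2926 exonic bases) and Muc2-201 (16 exons, 2032 exonic bases) carry the stop codon at 141754535-141754537 and the 3′ UTR behind it, which is 159 bases long in Muc2-207, stop codon included. A 3′ tag of full-length Muc2 RNA should fall in this last exon. All Muc2 values in the table were whole numbers, so none showed a read divided with another gene. The promoter window of the gene, 250 bases before to 50 after the start of transcription (RefSeq, GRCm38.p6, plus strand, chr7:141690090-141690389), is shown because it is the sequence at which factors of the secretory lineage meet the gene. Capitals mark GATAA and TATAA.
Muc2 promoter: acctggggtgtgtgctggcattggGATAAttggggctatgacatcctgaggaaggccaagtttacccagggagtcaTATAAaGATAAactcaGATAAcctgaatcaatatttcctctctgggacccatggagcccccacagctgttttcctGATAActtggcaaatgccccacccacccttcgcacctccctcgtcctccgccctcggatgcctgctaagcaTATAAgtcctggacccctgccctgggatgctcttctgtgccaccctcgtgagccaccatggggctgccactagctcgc

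In this window, searched on both strands, GATAA, the core read by GATA factors, stood 4 times, beginning 226, 168, 158 and 99 bases before the start. Of 32841 mouse promoters of this length, 25.4% held GATAA at least once and 0.204% held it 4 times or more. TATAA stood 2 times, 174 and 28 bases before the start, and 24.9% of promoters held it. The E-box CAGCTG stood once, and 16.3% of promoters held it. ACGTG, the core of XBP1 and related bZIP sites, and CCACG, part of the ER stress element, were not found, while 19.6% and 32.8% of promoters held them. None of the marked motifs overlapped another. Among 5 genes of mucus proteins described below, the table of promoters holds Fcgbp and Agr2, and neither window had GATAA or one of the XBP1-related motifs. These are matches of letters and were not tested against binding.

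Library totals ran from 3516792.6 to 5823059.7 reads, so that 1 read was worth about 0.232 CPM, the unit of all levels given here, in which each library's reads are put on the same total. The 8 epithelial markers and 7 goblet cell markers used to check the tissue were detected in every group, and the epithelial ones summed to 7198 CPM or more in every library. The targeted genes are read here by 3′ tags that may lie outside the deleted exons. Xbp1 tags were 51.11 to 65.15 CPM in Xbp1 knockout colons and 52.8 to 100.1 CPM in WT colons, a log2 fold change of -0.47 that did not pass (adjusted p = 0.3129). Xbp1 tags rose in double knockout colons relative to Xbp1 knockout colons (log2 fold change 0.91, adjusted p = 0.005576). Casp8 was 24.66 to 34.83 CPM in Casp8 knockout colons and 51.51 to 58.71 CPM in WT colons (adjusted p = 0.06784). The library labelled Xbp1 knockout replicate 2 had 21.09 CPM of Casp8, below all Casp8 knockout libraries. Mlkl was 1.298 to 4.383 CPM in 4 MLKL triple knockout libraries and 10.68 CPM in the library labelled replicate 5. It was 11.75 to 29.19 CPM in double knockout colons and 5.723 to 9.885 CPM in WT colons. The library labelled replicate 5 thus lay above every WT library. Tnfrsf1a fell in TNFR1 triple knockout relative to double knockout colons (log2 fold change -0.68, adjusted p = 0.005568). Double knockout replicate 1 stood apart with 10.285% of reads from mitochondrial genes. Results on Muc2 are given below with these 3 libraries, and without them where that changed a call.

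Muc2 RNA was low in every Xbp1-deleted genotype and high in both Xbp1-intact ones. Its level in the 20 Xbp1-deleted libraries was 285.9 to 867.7 CPM with a median of 586.3 CPM. In the 10 Xbp1-intact libraries it was 1468 to 2389 CPM with a median of 1794 CPM. No library of one state entered the range of the other, and the lowest Xbp1-intact library was 1.692 times the highest Xbp1-deleted one. Muc2 ranked between places 74 and 402 among genes by reads in Xbp1-deleted libraries, and between places 20 and 39 in Xbp1-intact ones. It took 0.0278% to 0.0833% of a library's reads in the first and 0.1473% to 0.2487% in the second. These values rest on 1352 to 4054 Muc2 reads per Xbp1-deleted library and 5359 to 9184 per Xbp1-intact library, so counting error was 1.1% to 2.39% by genotype, well under the spread between mice.

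In Xbp1 knockout colons, Muc2 was 431.0, 587.2, 493.2, 480.0 and 512.7 CPM in replicates 1 to 5. In WT colons it was 1597, 1765, 2010, 2003 and 2389 CPM. The knockout mean of 500.9 ± 56.94 CPM (SD, n = 5) was 25.6% of the WT mean of 1953 ± 299 CPM (SD, n = 5), and the groups were far apart. The fitted log2 fold change was -1.96 ± 0.197 (SE), a reduction of 74.3%, and only 3 of the 15458 genes fitted had a lower one. Counted from the lowest, Muc2 stood at place 7 in TNFR1 triple, 23 in MLKL triple and 132 in double knockout against WT. In double against Casp8 knockout colons it stood at place 157. These places use the values by which Muc2 was chosen and are a description. Casp8 knockout colons had 1824, 1625, 1836, 1739 and 1468 CPM of Muc2 (mean 1699 ± 153.9, SD, n = 5), which is 87% of WT. Double knockout colons had 662.8, 391.3, 766.0, 867.7 and 798.1 CPM (mean 697.2 ± 186.3, SD, n = 5), 35.7% of WT. Replicate 2 was the lowest of them and lay below every Xbp1 knockout library. TNFR1 triple knockout colons had 745.9, 456.8, 300.04, 285.9 and 361.6 CPM (mean 430 ± 189, SD, n = 5), 22% of WT, with replicate 1 above the other 4. MLKL triple knockout colons had 764.6, 651.9, 590.5, 650.2 and 585.4 CPM (mean 648.5 ± 72.18, SD, n = 5), 33.2% of WT.

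**Figure D1:**
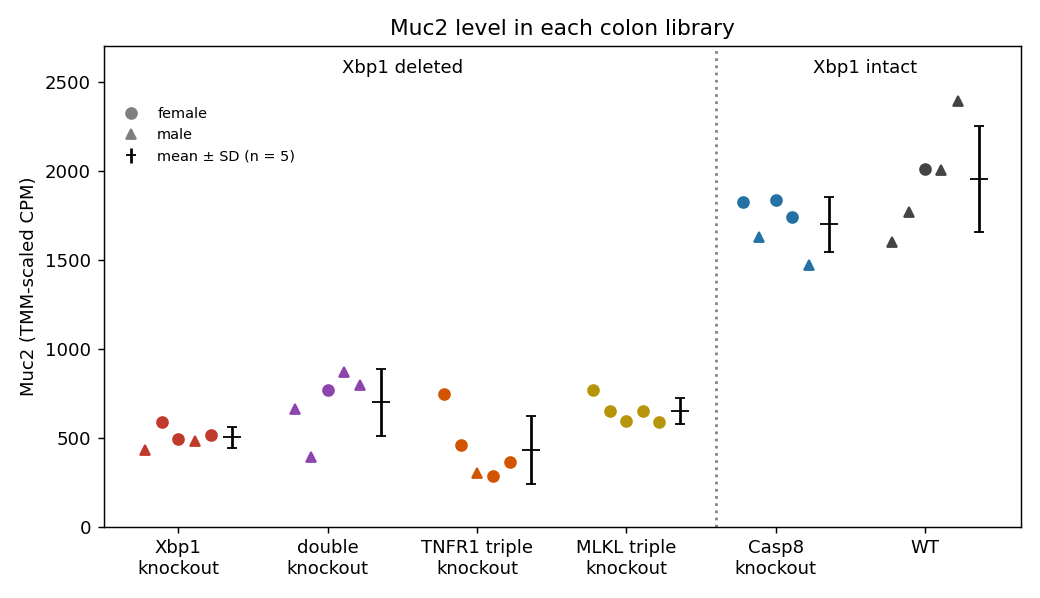
Muc2 level (CPM, vertical axis) in each library by genotype, with circles for females, triangles for males and a bar for the mean ± SD of 5 mice. The 20 libraries left of the dotted line, from Xbp1-deleted mice, lie between 285.9 and 867.7 CPM, and the 10 libraries right of it lie between 1468 and 2389 CPM.

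The means ordered the genotypes from TNFR1 triple knockout through Xbp1 knockout, MLKL triple knockout, double knockout and Casp8 knockout to WT. Each neighbouring pair in this order overlapped in range except double knockout and Casp8 knockout, whose means lay 1002 CPM apart. Against WT, the log2 fold change was -1.49 ± 0.194 in double knockout, -2.18 ± 0.199 in TNFR1 triple knockout and -1.59 ± 0.195 in MLKL triple knockout colons. These comparisons share the WT libraries with that of the Xbp1 knockout, and 21.3% of all genes were called in the first of them. The Xbp1 deletion on a Casp8 knockout background, which shares no library with the comparison of Xbp1 knockout and WT, came with a log2 fold change of -1.28 ± 0.193, a reduction of 59%. Muc2 varied most among TNFR1 triple knockout mice, with a coefficient of variation of 43.9%, and least among Casp8 knockout mice, with 9.06%. The fit gave Muc2 a biological coefficient of variation of 0.213, near the common value of 0.186.

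Between genotypes of the same Xbp1 state, no log2 fold change of Muc2 was larger in size than 0.70. Casp8 deletion with Xbp1 intact gave a log2 fold change of -0.20 ± 0.190 against WT, which did not pass (adjusted p = 0.6495 by edgeR's quasi-likelihood test with Benjamini-Hochberg adjustment), with a 95% interval of -0.594 to 0.191. Casp8 deletion on top of Xbp1 deletion gave 0.48 ± 0.191 in double knockout relative to Xbp1 knockout colons and did not pass (edgeR adjusted p = 0.113, exact permutation p = 0.07937). With double knockout replicate 2 left out this passed, at 0.616 (adjusted p = 0.02492). The difference between these effects of Casp8 deletion, the Xbp1 by Casp8 interaction, was 0.68 ± 0.270 and did not pass either (edgeR adjusted p = 0.1745). Of all genes, 1.17% were called in Casp8 knockout against WT, 8.64% in double against Xbp1 knockout and 1.38% for the interaction.

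Muc2 was lower in TNFR1 triple knockout than in double knockout colons, the one comparison within a state that passed. The log2 fold change was -0.70 ± 0.192 (edgeR adjusted p = 0.04568), a fold of 0.6166 with a 95% interval of 0.4685 to 0.8114, and 2.35% of all genes passed. The call sits at the threshold. The ranges overlapped, since TNFR1 triple knockout replicate 1 (745.9 CPM) lay among the double knockouts and double knockout replicate 2 (391.3 CPM) among the triple knockouts, and the exact two-sided permutation test gave p = 0.07143 (smallest possible 0.00794). The call was lost without double knockout replicate 1, 3, 4 or 5 (adjusted p = 0.0938, 0.06129, 0.1304 and 0.1049) and without TNFR1 triple knockout replicate 2, 3, 4 or 5 (adjusted p = 0.09547, 0.1165, 0.1442 and 0.1238). With sex as a term the log2 fold change was -0.857 (edgeR adjusted p = 0.02739), where 4 of the 5 TNFR1 triple knockout mice were female and 4 of the 5 double knockout mice male. Levels of other markers differed between these groups too. The 7 goblet markers Fcgbp, Clca1, Zg16, Tff3, Spink4, Klk1 and Spdef summed to 3078 to 6556 CPM in TNFR1 triple knockout and 3887 to 7577 CPM in double knockout colons. The 6 plasma cell markers summed to 1985 to 9527 CPM and 2638 to 15160 CPM in the same order, and the 4 neutrophil markers to 0 to 12.65 CPM and 16.88 to 295.6 CPM. Epithelial markers summed to 7944 to 9755 CPM in TNFR1 triple knockout and 9163 to 11320 CPM in double knockout colons, and the 6 smooth muscle markers to 3491 to 6419 CPM and 2753 to 4212 CPM. Their part in the Muc2 difference was not tested.

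In MLKL triple knockout against double knockout colons Muc2 did not pass, with a log2 fold change of -0.10 ± 0.191 and a 95% interval of -0.498 to 0.289 (edgeR adjusted p = 0.8029, 7.65% of all genes called). All 5 MLKL triple knockout mice were female, and 4 of the 5 double knockout mice male. Against Xbp1 knockout colons the log2 fold change was -0.22 ± 0.191 in TNFR1 triple knockout colons (edgeR adjusted p = 0.9985, 0.0194% of genes called) and 0.37 ± 0.191 in MLKL triple knockout colons (edgeR adjusted p = 0.6032, 0.0647% of genes called). The exact permutation test of the second gave p = 0.01587, unadjusted. Between the triple knockouts, TNFR1 against MLKL, the log2 fold change was -0.59 ± 0.192 (edgeR adjusted p = 0.2679, exact permutation p = 0.03968, 0.259% of genes called), and it passed without TNFR1 triple knockout replicate 1, at -0.886 (adjusted p = 0.00978).

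**Figure D2:**
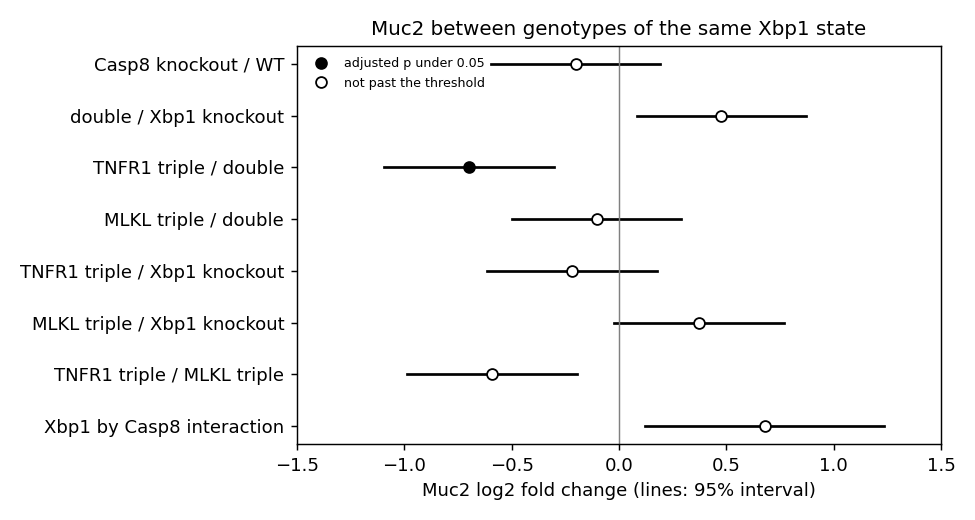
Log2 fold change of Muc2 (points) with its 95% interval (lines) for 7 comparisons between genotypes of the same Xbp1 state and for the Xbp1 by Casp8 interaction, with a filled point where the adjusted p is under 0.05. Only TNFR1 triple knockout against double knockout, at -0.70, is filled.

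By their reads of Xist and of Y-linked genes, 17 libraries were female and 13 male. Female means of Muc2 were the higher in every genotype that held both sexes. Muc2 averaged 531.1 CPM (493.2 to 587.2) in 3 female and 455.5 CPM (431 to 480) in 2 male Xbp1 knockout mice. WT mice had 2010 CPM in 1 female and 1938 CPM in 4 males. Casp8 knockout mice had 1800 CPM (1740 to 1836) in 3 females and 1547 CPM (1468 to 1625) in 2 males. Double knockout mice had 766 CPM in 1 female and 680 CPM in 4 males. TNFR1 triple knockout mice had 462.5 CPM in 4 females and 300 CPM in 1 male. This difference between the sexes was not tested. Among males only, the log2 fold change of Xbp1 knockout against WT was -2.09. All 5 MLKL triple knockout mice and 4 of the 5 TNFR1 triple knockout mice were female, while 4 of the 5 double knockout mice and 4 of the 5 WT mice were male, so the sexes and these genotypes cannot be fully told apart.

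The genes of the other goblet cell granule proteins were not called in the Xbp1 knockout. With 0.0841% of all genes called there, this alone does not show that they were unchanged. Zg16, a lectin that binds bacterial cell walls in mucus, was 2087, 2546, 2169, 2721 and 2923 CPM in Xbp1 knockout and 1938, 2182, 2496, 2931 and 3179 CPM in WT colons. The ranges of Zg16 almost coincided, and its log2 fold change was -0.03 (edgeR adjusted p = 0.9675). Clca1, a protease of the mucus, was 1173, 1076, 1237, 1236 and 1167 CPM in Xbp1 knockout and 1072, 1009, 1232, 1241 and 1213 CPM in WT colons (log2 fold change 0.03, edgeR adjusted p = 0.965). Tff3, the trefoil peptide of goblet cells, had a log2 fold change of 0.01 (edgeR adjusted p = 0.984). Fcgbp, an abundant mucus protein that is linked to MUC2, was 542.1 to 703.3 CPM in Xbp1 knockout and 596.4 to 844.6 CPM in WT colons, and its log2 fold change of -0.23 did not pass (edgeR adjusted p = 0.6011). Agr2, the ER disulfide isomerase needed for MUC2 production in mice, was 270.9 to 424.5 CPM and 377.3 to 489.7 CPM in the same order, with a log2 fold change of -0.38 that did not pass (edgeR adjusted p = 0.252). None of the 13 measured genes for granule and mucus proteins was called in Xbp1 knockout against WT, where 0.0841% of all genes were called, and their median log2 fold change was 0.011 beside -0.002 over all genes.

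Set against the mean of the 7 goblet markers on the log2 scale, Muc2 stood 0.094 ± 0.138 above it in Xbp1 knockout, 2.06 ± 0.137 in Casp8 knockout, 0.613 ± 0.379 in double knockout, 0.189 ± 0.382 in TNFR1 triple knockout, 0.197 ± 0.11 in MLKL triple knockout and 2.176 ± 0.1 in WT colons (SD, n = 5 each). In whole colon, fewer goblet cells and less RNA per goblet cell cannot be told apart for any one gene. The goblet markers summed to 5532 to 6685 CPM in Xbp1 knockout and 4933 to 7314 CPM in WT colons, ranges that overlapped. Of the reads of all mucin genes, Muc2 held 7.915% ± 1.27 in Xbp1 knockout, 26.34% ± 1.81 in Casp8 knockout, 10.34% ± 2.81 in double knockout, 6.702% ± 2.3 in TNFR1 triple knockout, 9.308% ± 1.5 in MLKL triple knockout and 26.14% ± 3.25 in WT colons (SD, n = 5 each).

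**Figure D3:**
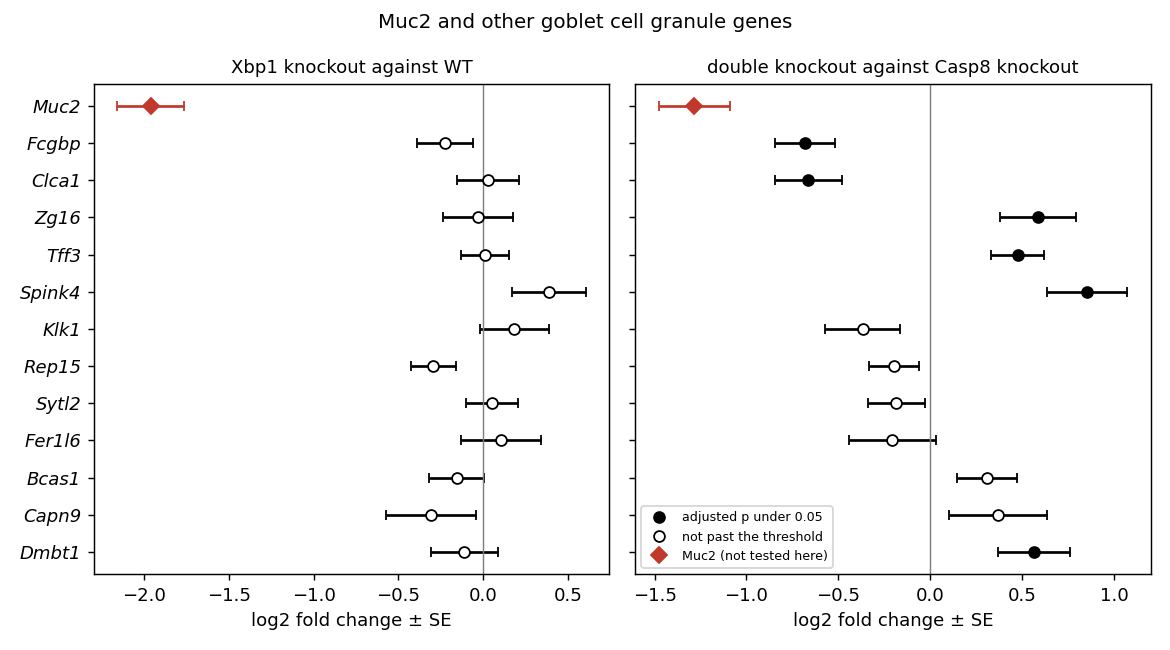
Log2 fold change ± SE (horizontal axis) of Muc2 and 12 other measured granule and mucus genes in Xbp1 knockout against WT colons (left) and in double knockout against Casp8 knockout colons (right), with filled circles where the adjusted p is under 0.05 and Retnlb left out because it was at 0 in WT. Muc2, at -1.96 and -1.28, lies left of the other genes in both panels, which for Muc2 are a description.

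On the Casp8 knockout background the partners of Muc2 moved in both directions. In double knockout relative to Casp8 knockout colons, Fcgbp fell (log2 fold change -0.68, edgeR adjusted p = 0.004622), with 366.5 to 623.6 CPM in double knockout and 674.5 to 968.4 CPM in Casp8 knockout colons. Clca1 fell too (-0.66, edgeR adjusted p = 0.01102; 0.04994 at the most without 1 library). Spink4, a small protease inhibitor of goblet cells, rose (0.85, edgeR adjusted p = 0.006646). Zg16 (0.59, edgeR adjusted p = 0.04415) and Tff3 (0.48, edgeR adjusted p = 0.01976) rose as well, but Tff3 lost the call without double knockout replicate 1 or 4 (edgeR adjusted p up to 0.09239), and Zg16 lost it without double knockout replicate 1, 3 or 4 or any one Casp8 knockout library (up to 0.1545). Both also lost it without the 3 libraries that stood apart or went against their labels. The Casp8 knockout level of Tff3, 628.7 to 692.9 CPM, was itself below the 734.3 to 1170 CPM of WT colons, and Tff3 in double knockout against WT colons had -0.09 (edgeR adjusted p = 0.7165). Agr2 had -0.05 (edgeR adjusted p = 0.8626). Of the 13 genes of this list 4 rose and 2 fell, where 18.4% of all genes were called, 9.68% higher and 8.71% lower, and the median was 0.312 beside 0.006 over all genes. Plasma cell markers summed to 2638 to 15160 CPM in double knockout and 1493 to 5806 CPM in Casp8 knockout colons. Epithelial markers summed to 9163 to 11320 CPM in double knockout and 7198 to 9107 CPM in Casp8 knockout colons, and smooth muscle markers to 2753 to 4212 CPM and 3884 to 6699 CPM. Their part in these changes was not tested.

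Within a state, Muc2 went up and down with Zg16 from mouse to mouse. Across the 20 Xbp1-deleted libraries the correlation of log2 CPM was r = 0.849 (permutation p = 1e-05, the smallest the 100000 resamples can give, adjusted 0.0001 over 10 relations) with rho = 0.826 (permutation p = 1e-05), and r = 0.768 without the 2 libraries farthest out. Across the 10 Xbp1-intact libraries it was r = 0.919 (permutation p = 0.00011, adjusted 0.00055) with rho = 0.83 (permutation p = 0.00487), and r = 0.855 without the 2 farthest. After the mean of each genotype was taken out, r was 0.764 in Xbp1-deleted and 0.891 in Xbp1-intact libraries. The permutations moved libraries across the genotypes of a state, so all p-values of this paragraph also reflect differences between genotypes. The r within genotypes was not tested. Tff3 followed at r = 0.741 in Xbp1-deleted (permutation p = 0.00024, adjusted 0.0008; rho = 0.531, permutation p = 0.0175; 0.569 without the 2 farthest) and r = 0.801 in Xbp1-intact libraries (permutation p = 0.00351, adjusted 0.00877; rho = 0.612, permutation p = 0.0659; 0.558 without the 2 farthest), and its r within genotypes was 0.738 and 0.766. In the Xbp1-deleted libraries Agr2 had r = 0.605 (permutation p = 0.00507, adjusted 0.0101; rho = 0.577, permutation p = 0.00885; 0.491 without the 2 farthest) and Fcgbp r = 0.564 (permutation p = 0.00928, adjusted 0.0155; rho = 0.46, permutation p = 0.0427; 0.482 without the 2 farthest). The rho of Fcgbp had an adjusted p of 0.0711 by permutation. In the Xbp1-intact libraries Agr2 had r = 0.346 (permutation p = 0.322; rho = 0.418, permutation p = 0.232) and Fcgbp r = 0.42 (permutation p = 0.228; rho = 0.503, permutation p = 0.144). With the mean of each genotype taken out, Fcgbp had r = 0.698 in Xbp1-deleted and 0.731 in Xbp1-intact libraries, higher than the pooled r in both, and Agr2 had 0.403 and 0.359. Clca1 had r = 0.245 in Xbp1-deleted (permutation p = 0.296; rho = 0.12, permutation p = 0.612) and 0.535 in Xbp1-intact libraries (permutation p = 0.116; rho = 0.733, permutation p = 0.0197, adjusted 0.0394), and 0.405 and 0.362 within genotypes. Goblet cell content, which all these genes share, was not held fixed.

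**Figure D4:**
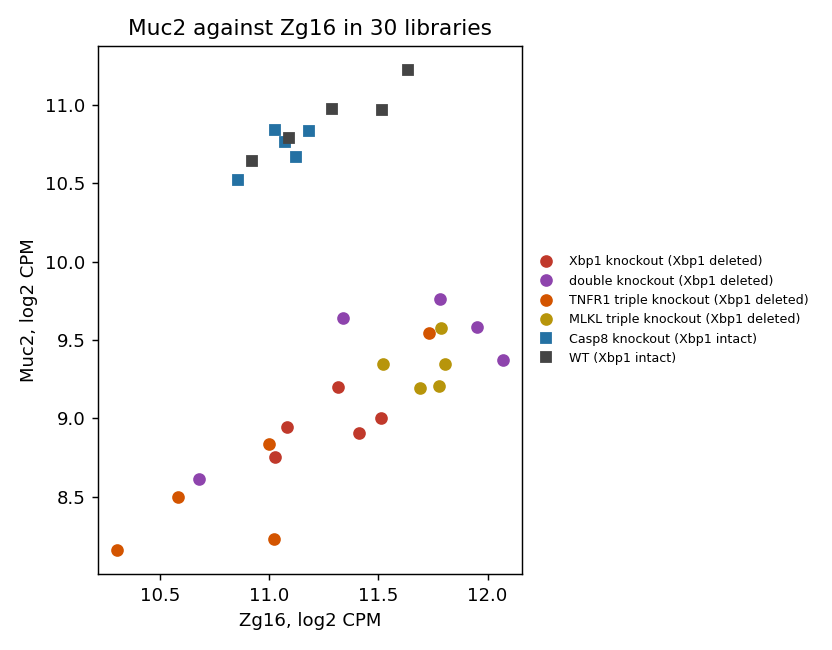
Muc2 against Zg16 (log2 CPM) in 30 libraries, with circles for Xbp1-deleted and squares for Xbp1-intact mice. Both states slope upward (r = 0.849 and 0.919), in separate bands with Muc2 lower in the Xbp1-deleted libraries at the same Zg16 level.

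The genes through which MUC2 is made were then read in lists by role. The lists other than that of granule proteins were other mucins, ER folding and quality control, O-glycosylation and sulfation, secretory lineage transcription factors, and mucus release and unfolding. Over all 6 lists 105 of 122 genes passed the filter on low counts, and in Xbp1 knockout against WT none of the 105 was called by edgeR, and 17 (16.2%) had an unadjusted p under 0.05, where 13% of all genes had one. DESeq2 called 4 of the 96 it gave an adjusted p, or 4.17%, and 1.4% of all such genes, and limma voom 8 of 105, or 7.62%, and 2.74% of all genes. Among ER genes, Sec61a1, the channel through which secreted proteins enter the ER, was 77.0 to 106.7 CPM in Xbp1 knockout and 120.2 to 164.9 CPM in WT colons. These ranges did not overlap, but the log2 fold change of -0.48 did not pass (edgeR adjusted p = 0.1109). P4hb, a disulfide isomerase, had -0.28 (edgeR adjusted p = 0.1889) and Derl1, of ER-associated degradation, -0.33 (edgeR adjusted p = 0.2204). The sialyltransferase St3gal4 had 0.84 (edgeR adjusted p = 0.07658) and St6galnac6, another one, 0.48 (edgeR adjusted p = 0.1102). Atoh1, the master factor of secretory cells, had 0.59 (edgeR adjusted p = 0.172). Cftr, the chloride and bicarbonate channel that helps mucus unfold, had 0.40 (edgeR adjusted p = 0.1224). The medians of the lists lay between -0.008 (5 other mucins) and 0.17 (16 transcription factors), beside -0.002 over all genes, with 0.019 for 27 ER genes, 0.068 for 29 glycosylation genes and 0.017 for 15 release genes.

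The gel-forming mucins beside Muc2 were almost unread in these colons. Muc6, Muc5ac and Muc5b, which adjoin Muc2 on chromosome 7, had 29, 0 and 1 reads over all 30 libraries and did not pass the filter. Muc3, a membrane mucin of enterocytes, was 2847 to 3942 CPM in Xbp1 knockout and 2873 to 3196 CPM in WT colons, with a log2 fold change of 0.22 that did not pass. The filtered protein-coding genes within 200 kb of Muc2 were Ap2a2, Tollip, Chid1, Tspan4 and Brsk2. None was called in Xbp1 knockout against WT, where 0.0841% of all genes were. Tspan4 rose in double relative to Casp8 knockout colons (log2 fold change 0.97, edgeR adjusted p = 0.02477), where 18.4% of all genes were called. Its Casp8 knockout level was itself low, with a mean of 5.446 CPM and 11 to 36 reads per library. The mean was 9.044 CPM in WT and 11.04 CPM in Xbp1 knockout colons.

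With Casp8 lost on top of Xbp1, several genes of mucin folding and mucus were called, while Muc2, with a log2 fold change of 0.48, did not pass. Whether Muc2 responded differently from the called genes was not tested. In double relative to Xbp1 knockout colons, 13 of the 105 genes rose and 4 fell, where 4.77% and 3.86% of all genes did, and their median log2 fold change was 0.159 beside 0.004. Of 27 ER genes 5 rose and none fell (median 0.265). Ero1l, the oxidase that drives disulfide formation, rose by 0.93 (edgeR adjusted p = 0.002369), and Edem1, of ER-associated degradation, by 0.60 (edgeR adjusted p = 0.00739). Ern2 had -0.17 in Xbp1 knockout against WT (edgeR adjusted p = 0.4993) and rose by 0.31 here, at the threshold (edgeR adjusted p = 0.04771). Among granule genes, Clca1 fell (log2 fold change -1.005, edgeR adjusted p = 0.00132), with 361.3 to 795.5 CPM in double knockout and 1076 to 1237 CPM in Xbp1 knockout colons. Spink4 rose (0.89, edgeR adjusted p = 0.009769), and Retnlb, a bactericidal goblet cell protein, rose (edgeR adjusted p = 0.006822) to 3.58 to 16.82 CPM in double knockout colons, against 0 to 0.927 CPM in Xbp1 knockout colons. Slc26a2, the sulfate transporter that feeds mucin sulfation, fell (-0.75, edgeR adjusted p = 0.003861), and Galnt12, which starts O-glycan chains, rose (0.63, edgeR adjusted p = 0.01097). Of 29 glycosylation genes 2 rose and 2 fell, of 16 transcription factors 1 rose, of 15 release genes 2 rose, and of 5 other mucins none was called. The count of 17 fell to 11 without double knockout replicate 4 or without Xbp1 knockout replicate 4. Plasma cell markers summed to 2638 to 15160 CPM in double knockout and 617.2 to 2371 CPM in Xbp1 knockout colons, and neutrophil markers to 16.88 to 295.6 CPM and 0.4143 to 2.781 CPM. Epithelial markers summed to 9163 to 11320 CPM in double knockout and 7261 to 9022 CPM in Xbp1 knockout colons, with no overlap, and smooth muscle markers to 2753 to 4212 CPM and 4195 to 6724 CPM. Their part in these counts was not tested.

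In the triple knockouts the same lists were set against the double knockout. In TNFR1 triple knockout colons 7 of the 105 genes fell and none rose, where 1.33% and 1.02% of all genes did, with a median of -0.166 beside -0.004. The 7 were down to 0 without double knockout replicate 1 or TNFR1 triple knockout replicate 2, 3 or 5, to 1 without double knockout replicate 4 or 5 or TNFR1 triple knockout replicate 4, and up to 11 without double knockout replicate 3, 16 without double knockout replicate 2 and 24 without TNFR1 triple knockout replicate 1. In MLKL triple knockout colons 5 rose and 8 fell, where 3.44% and 4.21% of all genes did, with a median of -0.05 beside 0.008. Clca1 rose there (log2 fold change 1.50, edgeR adjusted p = 3.1e-05) to 1392 to 1806 CPM in MLKL triple knockout colons, against 361.3 to 795.5 CPM in double knockout colons, while Muc2 did not pass. Klk1, a kallikrein of goblet cells, rose with it (1.30, edgeR adjusted p = 0.0003826). In MLKL triple knockout colons, epithelial markers summed to 7822 to 8798 CPM, smooth muscle markers to 4339 to 5028 CPM, plasma cell markers to 990.6 to 5064 CPM and neutrophil markers to 0 to 3.64 CPM. The double knockout sums were 9163 to 11320, 2753 to 4212, 2638 to 15160 and 16.88 to 295.6 CPM in the same order. The sexes differed as well, as given above, and the part of either in these calls was not tested. The 13 calls were 7 without double knockout replicate 4 or MLKL triple knockout replicate 4, and 8 without MLKL triple knockout replicate 1 or 3.

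Against WT, the double knockout had the most calls in these lists, as it had over all genes. Of all genes, 21.3% were called in it and 0.0841% to 2.12% in the other genotypes against WT. In double knockout colons 26 of the 105 genes rose and 7 fell, 31.4% in all, where 11.1% and 10.2% of all genes did and the median log2 fold change was 0.177 beside 0.006. Of 27 ER genes 8 rose and none fell, of 29 glycosylation genes 7 rose and 2 fell, of 16 transcription factors 5 rose, of 15 release genes 3 rose and 1 fell, and of 13 granule genes 3 rose and 4 fell. Spink4 rose (log2 fold change 1.28, edgeR adjusted p = 0.0001346) and so did Ero1l (0.93, edgeR adjusted p = 0.0005373). Clca1 fell (-0.98, edgeR adjusted p = 0.0003144), as did Slc26a2 (-0.80, edgeR adjusted p = 0.0006086) and Fcgbp (-0.53, edgeR adjusted p = 0.01992), whose call was lost without double knockout replicate 2 or 5 or WT replicate 5 (edgeR adjusted p up to 0.06447). Epithelial markers summed to 9163 to 11320 CPM in double knockout and 7263 to 8660 CPM in WT colons, smooth muscle markers to 2753 to 4212 CPM and 5521 to 7776 CPM, plasma cell markers to 2638 to 15160 CPM and 371.9 to 1484 CPM, and neutrophil markers to 16.88 to 295.6 CPM and 0 to 4.893 CPM. None of these ranges overlapped, and their part in the calls was not tested.

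In Casp8 knockout colons 3 of the 105 genes rose and 2 fell relative to WT, 4.76% in all, where 0.634% and 0.537% of all genes did. Uggt1, the folding sensor of glycoproteins, rose (log2 fold change 0.46, edgeR adjusted p = 0.009123). Tff3 fell (-0.56, edgeR adjusted p = 0.04547), at the threshold: it lost the call in 10 of 19 alternatives, among them each omission of a Casp8 knockout library and of WT replicate 3, 4 or 5 (edgeR adjusted p up to 0.1226). In TNFR1 triple knockout colons 7 fell and none rose, where 0.957% and 1.16% of all genes did (2.12% in all), among them Clca1 (log2 fold change -0.73, edgeR adjusted p = 0.03072), Tff3 (-0.66, edgeR adjusted p = 0.01337) and Fcgbp (-0.60, edgeR adjusted p = 0.04781). Each of these 3 calls was lost in some single-library omission, with adjusted p up to 0.09823, 0.05236 and 0.1374 in that order; Tff3 lost it without TNFR1 triple knockout replicate 4, as did the other two. In MLKL triple knockout colons 3 rose and none fell, where 0.343% and 0.511% of all genes did (0.854% in all), and no partner of Muc2 was among them. These comparisons share the WT libraries, and their counts moved by over 1.5 times in single-library omissions for Casp8 knockout (1 to 4), TNFR1 triple knockout (3 to 7) and MLKL triple knockout colons (0 to 4).

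No gene matched Muc2 closely in both the course and the size of its changes over the 30 libraries. The measure used is not scaled, so a gene that moves with Muc2 in smaller steps also differs from it. Likeness was the root mean square (RMS) difference from Muc2 in centred log2 CPM over 13026 genes, where Muc2's own SD was 0.9198. The smallest RMS difference was 0.5837, for Pyy, the peptide YY of enteroendocrine cells, followed by 0.6524 for Ccdc12, 0.6941 for Fcgbp, 0.6966 for Sec61a1, 0.6988 for Prr12 and 0.7029 for Qsox1, a sulfhydryl oxidase. No RMS difference was below 0.4599, which is 50% of the SD of Muc2. Genes with the mirror pattern were Cd48 (RMS 0.6512), Lgmn (0.675), Plac8 (0.6817), Foxf2 (0.6924), Cd86 (0.6944) and Tespa1 (0.6971). Of these, Cd48, Tespa1, Cd86 and Foxf2 rest on few reads, with means of 1.661, 1.877, 2.013 and 3.426 CPM over all libraries. Cd48, for example, had 1 to 3 reads in a WT library. Lgmn averaged 19.62 CPM and Plac8 1373 CPM. All like and mirror genes were picked over the same libraries, so their differences between the Xbp1 states are a description. Pyy had log2 fold changes of -0.95 in Xbp1 knockout against WT and -0.77 in double against Casp8 knockout colons. Most other enteroendocrine markers did not share the fall in Xbp1 knockout against WT. Gcg had 0.52, Sct 0.49, Tph1 0.40, Insl5 0.20 and Chgb 0.17, while Chga had -0.125, and none of these passed (edgeR adjusted p of 0.169 or more).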

How the data were processed

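The authors deposited 1 table of estimated counts of reads per Ensembl gene for 30 colon libraries, made with the Lexogen 3′ QuantSeq forward kit, per the labels' protocols. The tools in the submitters' processing notes are featureCounts 2.01, Subread, cutadapt 3.2 and R 4.0.0, and the build is GRCm38 (mm10); the sources used here state no aligner settings, strand setting or annotation release. Non-whole values made up 11.2% of the non-zero ones. Counts were rounded (a change of at most 0.00321% in any total), and 92 spike-in features with 0 reads were left out. Of 55487 gene identifiers 55141 had a symbol, and filterByExpr kept 15458 genes. The 30 libraries were fitted together, each genotype with its own coefficient (R 4.3.3, edgeR 4.0.16, TMM, quasi-likelihood test, Benjamini-Hochberg adjustment over all genes per comparison, threshold 0.05); CPM are TMM-scaled. The SE is the log2 fold change divided by the square root of F. The code was tested on simulated data. Permutation tests of single values are exact and two-sided. Alternatives were DESeq2 1.42.0 and its size factors, limma 3.58.1 voom, other filters, fits of the groups compared, sex, a replicate block, and omitted libraries. Replicate numbers were not treated as pairs in the main fit. In no comparison did all 5 same-numbered pairs deviate together (correlation over 0.1). In double against Casp8 knockout and in MLKL triple against Xbp1 knockout colons 3 of the 5 did, so the check cannot exclude partial pairing.

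Named genes were Muc2, the targeted genes, 5 mucus partners, up to 5 members of smallest p per list in Xbp1 knockout against WT and in double against Xbp1 knockout, filtered coding neighbours within 200 kb, and the 6 genes most like Muc2 and the 6 most like its mirror; a member of a list outside this rule that is named was chosen after its values were seen. Members and lists were chosen with earlier results of these data known. A 3′ tag count needs no length correction. Reads without molecular identifiers can be PCR copies, so counting errors cover counting only.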

Additional observations from a re-analysis of the deposited data

Results flagged for a closer look

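Fcgbp in TNFR1 triple knockout replicate 1 was 695.5 CPM, far from the other 4 libraries of its group, which were 368.8 to 448.3 CPM; the same library had the highest Muc2 of its group, 745.9 CPM. By chance about 1 group in 20 holds such a library. For 4 of the 105 genes of Muc2 production (3.81%, where 1.38% of all genes were called), the change with Casp8 deletion differed between Xbp1-deleted and Xbp1-intact mice by the interaction term of the edgeR fit, where Muc2 did not pass. The interaction was -1.10 log2 for Slc26a2 (adjusted p = 0.01707), and it passed in all 30 alternatives tried for it. It was -1.11 for St3gal4 (adjusted p = 0.04691), -0.68 for Cftr (adjusted p = 0.03847) and -0.49 for Uggt1 (adjusted p = 0.04933), and these were lost in 20, 16 and 24 of 30 alternatives.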

How the results depend on the processing

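The lower Muc2 of the Xbp1-deleted genotypes kept its direction in every alternative run. The gene and the split were chosen by these values, and the states did not overlap. This outcome was thus fixed in advance and lends the difference no support. With each library left out in turn, the log2 fold change was -2.027 to -1.879 in Xbp1 knockout, -1.587 to -1.347 in double knockout, -2.475 to -2.066 in TNFR1 triple knockout and -1.657 to -1.507 in MLKL triple knockout against WT, and -1.383 to -1.142 in double against Casp8 knockout colons. For TNFR1 triple against double knockout, Muc2 was no longer past the threshold with 3 libraries left out (-0.716, adjusted p = 0.09582), in the exact permutation test (-0.74), when only the groups compared were fitted (-0.69, adjusted p = 0.2632), with the replicate block (-0.716, adjusted p = 0.05895) or under the stricter filter (-0.688, adjusted p = 0.05364); without single libraries it was -0.991 to -0.582. The exact permutation test gave p = 0.01587 for MLKL triple against Xbp1 knockout (0.373) and p = 0.03968 for TNFR1 against MLKL triple knockout (-0.681). Neither p was adjusted for the number of such tests, so they are not calls like those of edgeR. In voom, TNFR1 against MLKL triple knockout passed (-0.787, adjusted p = 0.02833). Without single libraries TNFR1 against MLKL triple knockout gave -0.886 to -0.477. Double against Xbp1 knockout gave 0.377 to 0.616. The replicate block changed no other call of Muc2.

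Counts of called genes in the 6 lists moved more. Xbp1 knockout against WT had 0, with 4 in DESeq2, 8 in voom, 1 without a filter, 6 in a fit of the groups compared, and 0 to 1 without single libraries. Casp8 knockout against WT had 5, with 8, 9, 9 and 12 in the same order, 0 in males only, 1 with sex as a term and 1 to 4 without single libraries. MLKL triple knockout against WT had 3, with 7, 7, 7 and 9, 0 with sex as a term and 0 to 4. TNFR1 triple knockout against WT had 7, with 12 in voom and 3 to 7. Double knockout against WT, counted after the data were seen, had 33, with 28 in males and 24 to 33 without single libraries. Double against Casp8 knockout had 24, with 11 in males, 12 in a fit of the groups compared and 15 to 30. Double against Xbp1 knockout had 17, with 10 in males and 11 to 21. MLKL triple against double knockout had 13, with 8 in voom, 7 in a fit of the groups compared and 7 to 16. TNFR1 triple against double knockout had 7, with 0 without 3 libraries, 12 in DESeq2, 0 in a fit of the groups compared and 0 to 24. The cause was not tested. Depth does not limit Muc2, which had at least 1352 reads in each library.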
